A study of Mus musculus with 6 samples.

Results

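The cytosolic ribosomal protein genes were taken as all genes with a symbol made of Rpl or Rps and a number, followed by at most a letter (a, x, l or y) and a further digit. Of the 24421 symbols listed in each library, 80 followed this pattern, 48 with Rpl (proteins of the large, 60S subunit) and 32 with Rps (proteins of the small, 40S subunit). No measured value entered the choice. Genes of the S6 kinases, whose symbols begin with Rps6k, were left out, and ribosomal genes named otherwise, such as Rplp0, Rpsa and Fau, are described apart from the 80. The genes lay on 19 chromosomes of mm10, and 77 of them passed the filter on low values, which asked for 1 normalized count or more as the mean of the 6 libraries.

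RNA-seq was performed on cells of the olfactory bulb sorted for TurboRFP, in 3 mice of the control group and 3 of the Sox9 KO group, each mouse giving 1 library. All 6 mice, the controls included, had received the viral vector AAV-GFAP-iCre-P2a-TurboRFP, in which the GFAP promoter, active in astrocytes, drives both Cre recombinase and TurboRFP, a red fluorescent protein, and their cells were collected 4 weeks later. The KO mice were Sox9fl/fl, so that Cre removes Sox9, a transcription factor of astrocytes, from cells that express it. The controls were C57BL/6J mice, labelled WT, in which Cre has no floxed Sox9 to act on. Labels give the strain C57BL/6 to both groups, and the study describes its mice as adults of over 8 weeks, with no age for each library. Each group is limited as a model by the promoter and by the sort, because cells were selected by TurboRFP, driven by the GFAP promoter of the virus. Markers of other cell types were also present in the libraries, as given below.

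A ribosome is built of ribosomal RNA and a fixed set of proteins, nearly all present in a single copy, so that its protein genes are transcribed in step in most cells and make up an abundant class of mRNA. Their mRNAs are short and carry a 5′ terminal oligopyrimidine (TOP) tract, a C at the cap followed by a run of C and T, through which the kinase mTORC1 and the binding protein Larp1 set how well they are translated. Several of the proteins have near copies: Rpl3l and Rpl10l are used mainly in muscle and testis, Rpl22l1 can stand in for Rpl22, and Rps27l for Rps27. Most of the genes also have many processed pseudogenes, so that short reads can match several places in the genome.

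Transcript starts were read from RefSeq (GRCm38.p6, the assembly of mm10), which gave a start for 60 of the 80 genes. A tract was counted where the base at a start was C and the next 4 letters on the gene's own strand were each C or T. The windows of 8 genes are shown to let the tract be seen in genes with large, small and opposite changes. Each window has 10 bases before and 20 bases from the start, and capitals mark the tract where there is one. Rpl35a and Rps19 have 3 annotated starts and Rps27l has 2. For such genes a start with a tract was shown if there was one, and otherwise the start with the lowest coordinate.
Rps6 (chr4:86857348-86857377, minus strand): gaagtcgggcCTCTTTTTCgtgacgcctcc
Rpl35a (chr16:33056472-33056501, plus strand): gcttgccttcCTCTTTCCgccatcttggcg
Rpl14 (chr9:120571507-120571536, plus strand): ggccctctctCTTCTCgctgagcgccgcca
Rpl15 (chr14:18270967-18270996, minus strand): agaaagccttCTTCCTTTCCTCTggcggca
Rpl10 (chrX:74270806-74270835, plus strand): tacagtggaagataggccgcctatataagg
Rps27l (chr9:66946076-66946105, plus strand): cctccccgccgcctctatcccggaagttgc
Rps19 (chr7:24884582-24884611, plus strand): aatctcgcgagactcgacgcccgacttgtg
Rpl22l1 (chr3:28805498-28805527, plus strand): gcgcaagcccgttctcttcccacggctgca

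A tract lay at an annotated start in 12 of the 60 genes (20%), against 813 of 27025 genes with a start in the same annotation (3.01%). With a tract allowed to begin within 5 bases of the start, it was found in 28 of the 60 (46.7%) and in 21.2% of all genes. Rps6, a phosphorylation target of the S6 kinases, has 9 bases of tract, and Rpl15, a protein of the large subunit core, has 13. A window without a tract shows only that these letters do not stand at the annotated start.

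The libraries held between 18242129 and 86906527 reads on genes, with KO replicate 2 the deepest and control replicate 3 the shallowest. Of these reads, 14.2% to 22.4% fell on Rn45s, the precursor of ribosomal RNA. Sox9 was at 5185, 6562 and 4921 normalized counts in the controls and at 52.6, 64.3 and 57.7 in KO, with libraries listed here and throughout in the order of replicates 1, 2 and 3. The labels name all samples as astrocytes, and the 12 astrocyte markers listed for this purpose had summed levels of 551690 to 621040 normalized counts in controls against 39379 to 51250 in the KO libraries, with none at 0 and 12 of 12 lower in KO. The 13 microglia and macrophage markers summed to between 218210 and 244340 in the controls and to between 879130 and 1023800 in KO, with none at 0 and 13 of 13 higher. Of the other lists, 9 of 10 neuron markers and 8 of 8 oligodendrocyte markers were lower in KO. Among all tested genes, 32.0% were lower and 29.3% higher by the test given below. Of 6 endothelial markers, 3 were lower and 1 (Flt1, log2 fold change 0.80) was higher, and their summed levels overlapped between the groups. The 6 lymphocyte markers summed to between 33.6 and 60.8 over all libraries, and 1 of them, Nkg7, was called higher from few reads. Of 5 erythroid markers, the 4 globin genes were listed at 0 in every library. The remaining erythroid marker, Alas2, was lower in KO (log2 fold change -1.88, limma adjusted p = 0.01). The groups thus differ in markers of several cell types, and the part of this difference in the results on ribosomal protein genes was not tested. In such bulk samples, fewer cells of a type and less RNA per cell cannot be told apart.

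Ribosomal protein genes were higher in the KO libraries almost throughout. Of the 77 tested, 71 rose and 2 fell at an adjusted p under 0.05 (limma, Benjamini-Hochberg over all genes tested), where 29.3% of all 18413 tested genes rose and 32.0% fell. With a change of at least 1.5-fold required as well, 63 rose and 2 fell, against 22.2% and 28.8% of all genes. The median log2 fold change was 0.88 (1.84-fold), with the middle of the distribution between 0.67 and 1.06, and the median of all tested genes was -0.066. All 3 KO libraries lay above all 3 controls for 71 genes, as they did for 32.4% of all genes, and below them for 2, as they did for 34.7% of all genes.

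The genes that did not rise were few and can all be named. Rps27l and Rpl3l fell, and Rps19, Rps4l, Rpl39l and Rps27 did not pass the test in either direction. Rpl26, Rpl30 and Rpl10l were not tested because of low values. The plot of fold changes by gene shows the genes called higher to the right of the median of all tested genes.

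**Figure D1:**
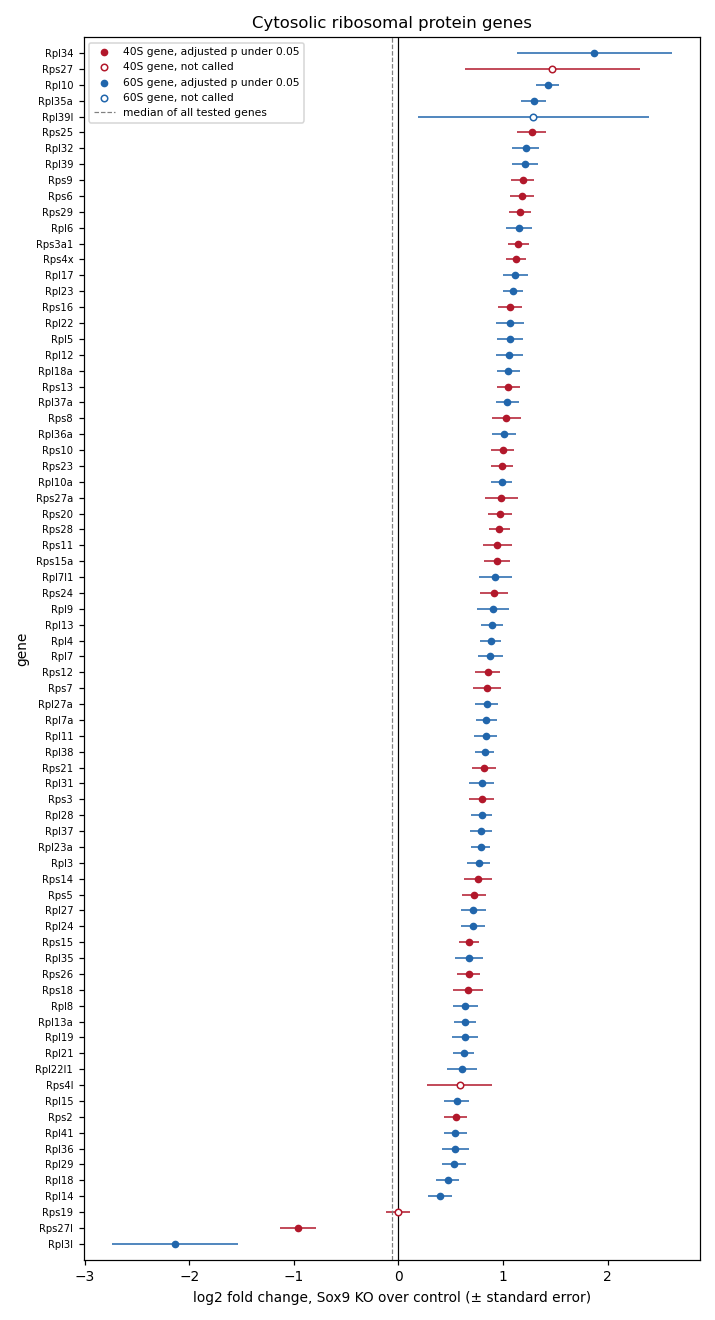
Log2 fold change (Sox9 KO over control, x axis) of the tested ribosomal protein genes that are reported singly, ordered by size (y axis), with the standard error as bars, blue for 60S and red for 40S genes, and open circles for genes not called. The dashed line marks the median of all tested genes at -0.066, and the filled circles lie to the right of 0 apart from the 2 of Rps27l and Rpl3l.

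Of the 72 genes with a mean of at least 100 normalized counts, 61 were between 1.5- and 2.5-fold higher. Over all 72, the log2 fold change ran from -0.96 to 1.43, with an SD of 0.33. The median standard error was 0.12, so the genes differed from each other by more than the error of a typical gene. Of the large subunit genes, 43 of 45 tested rose and 1 fell, with a median of 0.84, and of the small subunit genes 28 of 32 rose and 1 fell, with a median of 0.94. The ratio of 60S to 40S reads was 1.63 ± 0.019 across controls and 1.61 ± 0.043 across KO libraries (SD, n = 3 each), with overlap between the groups. Across the 72 genes, the log2 fold change had a Pearson's r of 0.14 with transcript length and of 0.29 with the log2 control level, as a description of genes that share their 6 libraries.

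**Figure D2:**
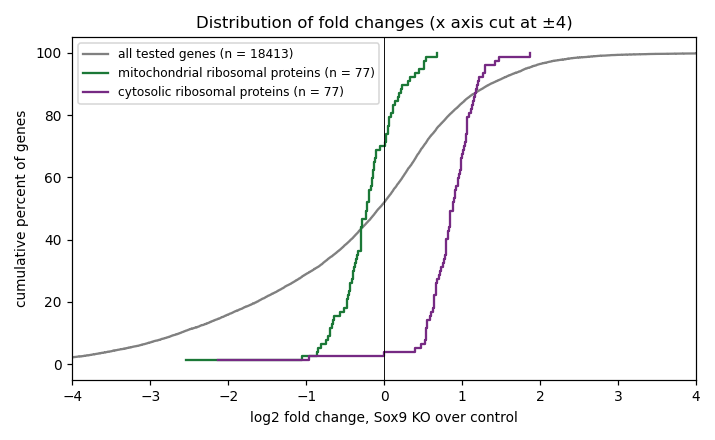
Cumulative percent of genes (y axis) by log2 fold change, Sox9 KO over control (x axis, shown from -4 to 4), for all 18413 tested genes (grey), 77 mitochondrial ribosomal protein genes (green) and 77 cytosolic ribosomal protein genes (purple). The purple curve climbs steeply around its median of 0.88, whereas the green curve has its median at -0.22.

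The share of all reads on genes that fell on the 80 genes was 1.11%, 1.21% and 1.22% in the controls and 1.96%, 1.73% and 1.97% in KO. Every KO library was above every control. The mean was 1.18% ± 0.064 across controls and 1.89% ± 0.135 across KO libraries (SD, n = 3 each), a ratio of 1.60. With Rn45s taken out of the total, the means were 1.49% ± 0.062 and 2.25% ± 0.198, a ratio of 1.51. This share does not depend on the scaling of the libraries, and it is given with no test.

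The genes also moved together between libraries of the same group. In KO replicate 1, 71 of the 72 well-counted genes lay above the KO mean, by a median of 0.17 on the log2 scale, and in KO replicate 2, 1 of the 72 did, with a median of -0.19. KO replicate 1 was the highest of the KO libraries for 61 genes and KO replicate 2 the lowest for 60. The place of KO replicate 1 depends on the scaling. Its share of all reads (1.96%) was level with that of KO replicate 3 (1.97%), and above it without Rn45s (2.42% against 2.30%). KO replicate 2 had the lowest share of the KO libraries both ways. Among the controls the medians were -0.074, 0.068 and -0.0027. Over all tested genes, these medians were between -0.00062 and 0.0075 in the 6 libraries. The DESeq2 size factors are set to hold such medians near 0, so they are no independent comparison. KO replicate 2 was also the deepest library, and the part of depth in its low values was not tested.

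**Figure D3:**
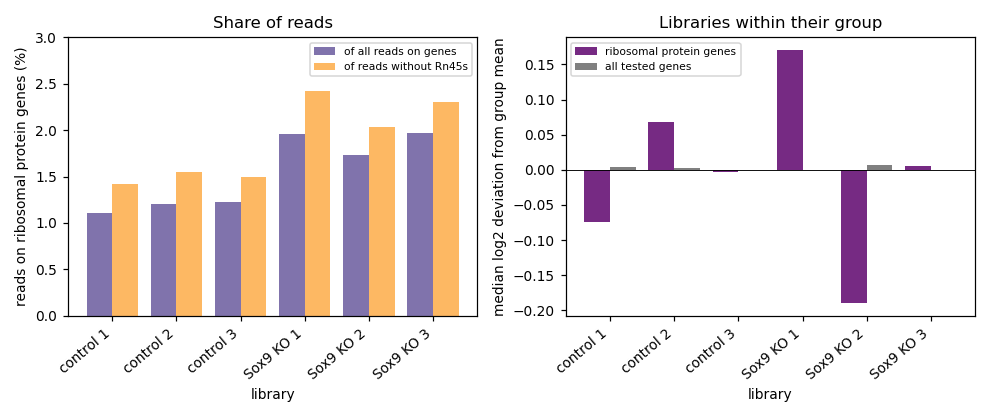
Left, percent of reads on the 80 ribosomal protein genes (y axis) in each of the 6 libraries (x axis), of all reads on genes and of reads without Rn45s. Right, median log2 deviation of each library from its group mean (y axis) for 72 ribosomal protein genes and for all tested genes, with KO replicate 1 at 0.17 and KO replicate 2 at -0.19 for the ribosomal protein genes.

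The genes with the highest normalized count per kb of transcript were Rpl10, Rps29, Rpl31, Rpl4 and Rps4x. Rpl10, a protein that joins the 60S subunit late in its assembly, was at 13118, 13980 and 12526 normalized counts in the controls and at 39273, 31141 and 36405 in KO. The KO libraries stood well clear of the controls. Its log2 fold change was 1.43 ± 0.11 (SE, limma adjusted p = 1.3e-06), the largest of the 72 well-counted genes.

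Rpl4, whose long loop lines the tunnel through which new proteins leave, was at 18055, 21096 and 19047 normalized counts in the controls and at 37354, 35549 and 34123 in KO, 1.84-fold higher. Rps4x, a small subunit protein encoded on the X chromosome, was at 10038, 11050 and 11349 in the controls and at 24657, 21282 and 24826 in KO, 2.18-fold higher. Rps29, a zinc-binding protein of the 40S head, was at 6057, 6534 and 6883 in the controls and at 16310, 14357 and 13086 in KO, 2.24-fold higher. In each of the 3 genes the groups were apart, and the limma adjusted p-values were 2.1e-05, 3.7e-06 and 3.9e-06. Rpl31, at the tunnel exit, was at 7980, 9735 and 9549 in the controls and at 17680, 13747 and 15977 in KO, 1.74-fold higher (limma adjusted p = 0.00018). Under quantile normalization Rpl31 (log2 fold change 0.26, limma adjusted p = 0.054) and Rpl4 (0.22, limma adjusted p = 0.053) lost their calls.

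Per kb of transcript, Rpl31 (18661 normalized counts per kb), Rps29 (16645) and Rpl10 (16531) led in the controls, whereas Rpl10 (44564), Rps29 (37395) and Rpl31 (32446) led in KO. The log2 levels per kb in control and in KO had a Pearson's r and a Spearman's rho of 0.95 across the 72 genes, which have the same lengths and base composition in both groups. The order of the genes was thus largely kept while the level rose.

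After Rpl10, the largest rises of well-counted genes were those of Rpl35a, Rps25, Rpl32 and Rpl39. Rpl35a, a 60S protein needed for the processing of ribosomal RNA, was at 2331, 2526 and 2144 normalized counts in the controls and at 6431, 4851 and 5966 in KO. The KO values did not overlap with the controls, and the log2 fold change was 1.29 ± 0.12 (SE, limma adjusted p = 5e-06). Rps25, which takes part in initiation on some viral and cellular internal entry sites, was at 3773, 4798 and 4450 in the controls and at 11440, 8518 and 11673 in KO, with a log2 fold change of 1.27 ± 0.14 (SE, limma adjusted p = 1.7e-05).

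Rpl32, a 60S protein, was at 1930, 2082 and 1950 normalized counts in the controls and at 5110, 3674 and 5235 in KO, with a log2 fold change of 1.22 ± 0.13 (SE, limma adjusted p = 1.9e-05). Rpl39, a small protein that narrows the tunnel exit, was at 5289, 5768 and 6314 in the controls and at 15085, 11028 and 14251 in KO, with a log2 fold change of 1.21 ± 0.13 (SE, limma adjusted p = 1.4e-05). Rps6, whose tract is shown above, was at 5479, 6625 and 6754 in the controls and at 15051, 12367 and 15412 in KO, with a log2 fold change of 1.18 ± 0.12 (SE, limma adjusted p = 9.4e-06). In all 3 genes KO replicate 2 was the lowest of the KO libraries and still above every control.

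Rpl5 and Rpl11 form, with the 5S ribosomal RNA, the particle that can bind Mdm2 when ribosome assembly is disturbed. Rpl5 was at 10129, 10527 and 10873 normalized counts in the controls and at 23821, 17860 and 24908 in KO, 2.09-fold higher (limma adjusted p = 3.4e-05). Rpl11 was at 5299, 6195 and 6434 in the controls and at 11848, 9441 and 10716 in KO, 1.78-fold higher (limma adjusted p = 8.5e-05). Both genes rose with no overlap between the groups.

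Of 7 genes of the tunnel exit, 6 were tested and all 6 rose, with a median log2 fold change of 0.79. In the whole family 71 of 77 rose, and of all tested genes 29.3%. Besides Rpl31 and Rpl39, Rpl23a, which carries the docking site of the signal recognition particle, was at 6211, 6798 and 6743 normalized counts in the controls and at 12417, 10704 and 11003 in KO, a log2 fold change of 0.79, and exons of other genes cover 62.3% of its own. Rpl17 had a log2 fold change of 1.12, with means of 4307 ± 282 across controls and 9416 ± 1475 across KO libraries (SD, n = 3 each).

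Of 6 genes of the mRNA channel and the decoding site, all 6 rose, with a median of 0.73, against the same 29.3% of all tested genes. Rps23, at the decoding centre, was at 8002, 8913 and 7960 normalized counts in the controls and at 18713, 14401 and 16484 in KO, a log2 fold change of 0.99. Rps3 and Rps2, at the entry of the channel, had log2 fold changes of 0.79 and 0.55, and Rps28, at its exit, one of 0.97. Rps2 lost its call when scaled to the same total without Rn45s (0.22, limma adjusted p = 0.09) and under quantile normalization (0.20, limma adjusted p = 0.1).

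Of 16 genes linked to Diamond-Blackfan anaemia, a failure of red cell formation caused by loss of 1 copy of a ribosomal protein gene, 15 were tested and 13 rose, with a median of 0.85. Among all tested genes 29.3% rose. Rps24, from this list, was at 6931, 8220 and 7823 normalized counts in the controls and at 15940, 11610 and 16100 in KO, a log2 fold change of 0.91. Rps19 and Rps27 were the genes of this list that did not pass the test, and Rpl26 was listed at 0. The lists of the particle, the tunnel exit, the channel and the anaemia overlap with each other and with the genes named above.

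Rps19, the gene most often mutated in that anaemia, and Rps27l were the well-counted genes that did not rise. Rps19 was at 3281, 3695 and 3447 normalized counts in the controls and at 4038, 3120 and 3284 in KO. The KO libraries lay on both sides of the controls, and the log2 fold change was -0.0047 ± 0.11 (SE, limma adjusted p = 0.97). Its level per kb, 5489 in control, was close to the median of the 72 genes, 5390, and in KO it was 5499 where that median was 10790. Its direction changed with the tool, and the changes are given with the processing alternatives.

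Among the smallest rises were those of Rpl14, Rpl18 and Rpl29. Rpl14, a 60S protein whose tract is shown above, was at 3285, 3665 and 3264 normalized counts in the controls and at 5292, 3916 and 4354 in KO, with a log2 fold change of 0.40 ± 0.12 (SE, limma adjusted p = 0.013). The lowest KO library was just above the highest control. Rpl18 and Rpl29, both 60S proteins, had log2 fold changes of 0.47 and 0.53, with limma adjusted p-values of 0.004 and 0.0024, and their groups did not overlap. All 3 lost their call under some alternatives, with Rpl14 called in 11 of 17, Rpl18 in 14 and Rpl29 in 15.

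Rps27l, a near copy of Rps27 and a known target of p53, was the only well-counted gene of the family that fell. It was at 1127, 1354 and 1187 normalized counts in the controls and at 593, 505 and 817 in KO. All KO libraries were below all controls. The mean went from 1222 ± 118 to 638 ± 161 (SD, n = 3 each), and the log2 fold change was -0.96 ± 0.17 (SE, limma adjusted p = 0.00061). Rps27l was called lower in 17 of 17 alternatives. Its reads numbered between 538 and 1967 per library, and 22.4% of its 50-base stretches also occur in transcripts of other annotated genes.

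Rpl3l, the muscle form of Rpl3, was the other gene that fell, from very few reads. The control libraries held 7, 8 and 6 reads of it and the KO libraries 1, 2 and 1. Scaled for depth, this was 10.2, 5.51 and 9.46 normalized counts in the controls and 0.993, 0.79 and 1.52 in KO, with no overlap (limma adjusted p = 0.011). The size of such a change rests on the pseudocount, and the fitted log2 value was between -3.02 and -1.12 over the alternatives.

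**Figure D4:**
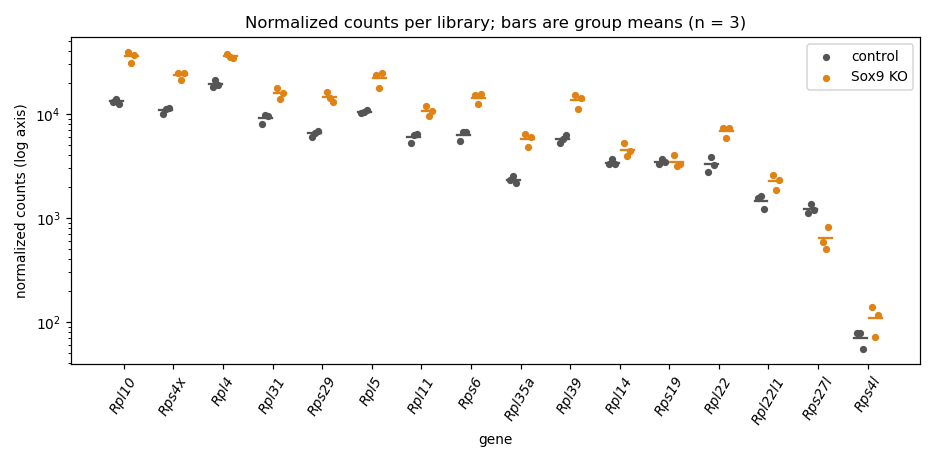
Normalized counts (y axis, log axis) of 16 named genes in each library (points, grey for control and orange for Sox9 KO), with bars at the group means (n = 3). KO points stand above control points in most genes, below them in Rps27l, and among them in Rps19 and Rps4l.

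The other near copies were set against their parent genes within each library, which does not depend on scaling. Rpl22l1 was at 1570, 1619 and 1218 normalized counts in the controls and at 2557, 1853 and 2317 in KO, 1.52-fold higher (limma adjusted p = 0.0044), and it lost the call when scaled to the same total without Rn45s (log2 fold change 0.28, limma adjusted p = 0.1). Rpl22, which binds RNA and represses Rpl22l1, was at 2755, 3855 and 3233 in the controls and at 7346, 5852 and 7338 in KO, 2.09-fold higher (limma adjusted p = 6.1e-05). Both rose, and the parent by more.

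Of the normalized counts on this pair, Rpl22l1 held a mean of 31.1% in control and 24.6% in KO. The log2 ratio of Rpl22l1 to Rpl22 was -0.81, -1.25 and -1.41 in the controls and -1.52, -1.66 and -1.66 in KO, with every KO library lower and control replicate 1 apart from the other controls. The difference was -0.46 (exact permutation test, two-sided, p = 0.1, adjusted p = 0.25 over 5 pairs), and 0.1 is the smallest p that 3 against 3 libraries allow. Without control replicate 1 the difference was -0.29. A share of 65.6% of the 50-base stretches of Rpl22l1 occurs in other annotated genes, so that reads may be split or lost there.

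Rpl7l1, a paralog of Rpl7 that acts in early assembly of the large subunit, was at 617, 534 and 411 normalized counts in the controls and at 1016, 884 and 1039 in KO, 1.90-fold higher (limma adjusted p = 0.00046). Rpl7 was at 5411, 5307 and 4265 in the controls and at 10177, 8102 and 9243 in KO, 1.84-fold higher (limma adjusted p = 9.8e-05). The log2 ratio of the pair differed by 0.048 between the groups, which overlapped (exact permutation test, two-sided, p = 0.8). Both genes rose.

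Rps4l was at 77.5, 78.5 and 55.2 normalized counts in the controls and at 139, 71.5 and 115 in KO, with groups that overlapped and a log2 fold change of 0.58 ± 0.31 (SE, limma adjusted p = 0.13). KO replicate 2 was as low as the controls, and without it Rps4l passed the test (log2 fold change 0.86, limma adjusted p = 0.032). The log2 ratio to Rps4x differed by -0.54 (exact permutation test, two-sided, p = 0.2, adjusted p = 0.333), by -0.34 without KO replicate 2 and by -0.74 without control replicate 3. The annotation used for transcript lengths holds no coding transcript of Rps4l, so the sequence it shares with Rps4x was not measured.

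Rpl3, the parent of Rpl3l, was 1.70-fold higher in KO (limma adjusted p = 0.00011), from 9135 ± 642 to 15580 ± 1864 normalized counts (SD, n = 3 each). Rpl39l, used mainly in the testis, was counted with 2, 0 and 0 reads among controls against 2, 0 and 12 among KO libraries, and its log2 ratio to Rpl39 differed by 0.083 (exact permutation test, two-sided, p = 0.9). Rpl10l, the testis form of Rpl10, had 1 read in control replicate 2 and none elsewhere. The pairs of Rpl3l and of Rpl10l were not tested, since neither copy reached 10 reads in a library.

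Some genes that most cells transcribe strongly were listed at or near 0 in all libraries. Rpl26 was listed at 0 throughout, and Rpl30 had between 0 and 4 reads per library. Rps27 had 4, 4 and 0 reads among controls against 3, 32 and 6 among KO libraries, which leaves no base for a ratio to Rps27l (difference -2.43, exact permutation test, two-sided, p = 0.1). Rpl34 had 1, 0 and 0 reads among controls against 2, 12 and 4 among KO libraries and is 1 of the 71 genes called higher (limma adjusted p = 0.049), and it was called in 5 of 16 alternatives. It passed the filter of 1 only through its KO mean of 4.27 normalized counts, with a control mean of 0.487, so its call is no firm rise.

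Of the 50-base stretches of these genes, 98.7% in Rps27, 76.4% in Rpl30, 71.3% in Rpl26 and 50.6% in Rpl34 also occur in transcripts of other annotated genes. Sharing was also high in genes with many reads, at 93.8% for Rpl5 and 92.1% for Rpl10, both with at least 6898 reads in every library. Of the 79 genes with a transcript to compare, 49 shared at least 50% of their stretches. The genes with less sharing had 26 higher and 2 lower calls among 29 tested and a median of 0.93. Those with more had 45 higher calls among 47 and a median of 0.85. Among all tested genes, 29.3% were called higher and 32.0% lower. The sources used here do not give how reads with several matches were counted.

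Genes with and without a tract at the annotated start both rose, and the difference between them was not tested. Of the 12 genes with a tract, 11 rose and the median log2 fold change was 0.82. Of the 46 tested genes with a start and no tract, 42 rose and 2 fell, with a median of 0.90. In the whole family 71 of 77 rose and 2 fell, and of all tested genes 29.3% rose and 32.0% fell. Among the windows shown above, Rps6 and Rpl35a had tracts and large rises, Rpl14 and Rpl15 had tracts and rises of 0.40 and 0.56 on the log2 scale, and Rpl10, the well-counted gene with the largest rise, had none.

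Ribosomal genes outside the naming pattern rose as well. All 8 of those tested rose, against 29.3% of all tested genes, with a median of 0.99, between 0.58 and 1.17. Rplp1, of the stalk that recruits elongation factors, was at 6452, 6655 and 6037 normalized counts in the controls and at 15502, 12331 and 13482 in KO, a log2 fold change of 1.10. Fau, whose product is split into Rps30 and a ubiquitin-like protein, had a log2 fold change of 1.17, and Rplp0 and Rpsa ones of 0.96 and 0.68.

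Mitochondrial ribosomal protein genes, which encode the separate ribosome of that organelle, had another pattern. Of 77 tested, 6 rose and 24 fell, with a median log2 fold change of -0.22. The shares are near or below those of all genes. Mrps6 was at 491, 532 and 612 normalized counts in the controls and at 80.4, 87.6 and 112 in KO, a log2 fold change of -2.54, and Mrps11 had one of -1.05. Mrps33 fell by 0.37, and Mrps14 and Mrpl52, at -0.29 and 0.33, did not pass the test.

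Translation factors and other genes listed as having TOP mRNAs rose in 15 of 18 cases, with none lower and a median of 0.62. Of all tested genes, 29.3% rose and 32.0% fell. The list was not made from the tract count: of its 12 genes with an annotated start, 3 (25%) had a tract at it and 5 (41.7%) within 5 bases. Eef1a1, the factor that brings aminoacyl-tRNA to the ribosome, was at 76470, 83379 and 75282 normalized counts in the controls and at 170220, 136440 and 155340 in KO, a log2 fold change of 0.97. Pabpc1, the poly(A)-binding protein, had a log2 fold change of 0.94, Tpt1 one of 0.97 and Snhg1, a host gene of small nucleolar RNAs, one of 1.10. In Eef1a1, as in most of the ribosomal protein genes, KO replicate 1 was the highest and KO replicate 2 the lowest of the KO libraries.

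Genes of ribosome assembly were less uniform. Of 30 tested, 14 rose and 3 fell, with a median of 0.32, where 29.3% of all genes rose and 32.0% fell. Heatr1, which acts in transcription and processing of ribosomal RNA, rose by 0.93 on the log2 scale, Nop56, of the box C/D particles, by 0.48 and Ncl by 0.44, while Rrs1 fell by 0.90 and Mdn1, at 0.083, did not pass the test.

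In the mTORC1 and S6 kinase pathway, 9 of 20 genes rose and 4 fell, with a median of 0.25, against the same 29.3% and 32.0% of all genes. Rps6ka1 and Rps6ka3, kinases that can phosphorylate Rps6, were higher by 1.84 and 1.12 on the log2 scale, Deptor, an inhibitor of mTOR, by 1.58, and Larp1, which holds TOP mRNAs back from translation, by 0.71. The 4 that fell were Mtor, by 0.28, Rps6ka2, by 0.56, Tsc2, by 0.59, and Mlst8, a partner of mTOR, which had means of 238 ± 46.1 normalized counts across controls and 105 ± 9.17 across KO libraries (SD, n = 3 each). Eif4g1, at -0.21, did not pass the test. The pathway was read here from mRNA only, and neither phosphorylation nor translation was measured.

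The count of genes called and the size of the median depended on the scaling. Scaled to the same total, with and without Rn45s, the median of the family was 0.64 and 0.55, and the medians of all tested genes moved to -0.29 and -0.37. The distance between the family and all genes was then 0.93 under both scalings, against 0.94 as reported. Such a scaling shifts all genes of a library alike, so this distance could move only through the pseudocount. Under quantile normalization the median was 0.51 beside 0.19 for all genes, a distance of 0.32, and all genes called were 36.5% higher and 25.7% lower. The number of family members called higher was between 60 and 71 over these settings, and the share of all tested genes between 19.6% and 36.5%.

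**Figure D5:**
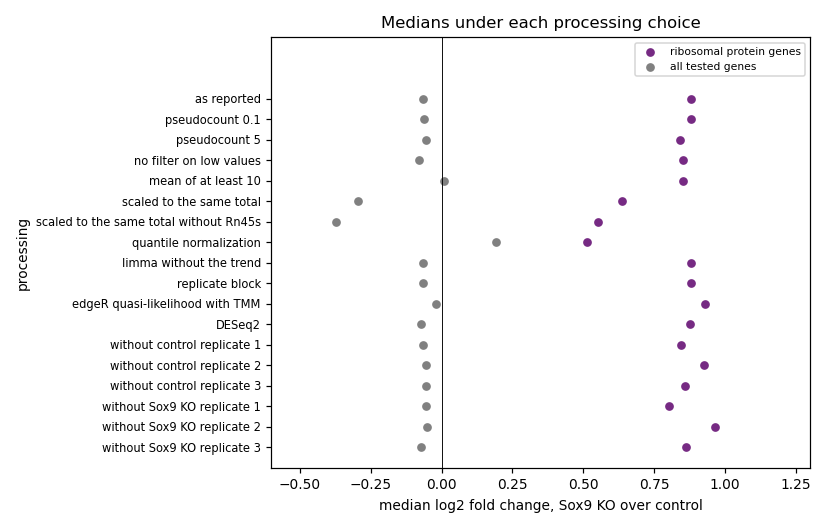
Median log2 fold change, Sox9 KO over control (x axis), of the ribosomal protein genes (purple) and of all tested genes (grey) under each processing choice (y axis). The purple points lie between 0.51 and 0.97 and the grey points between -0.37 and 0.19, so that the purple point is to the right in every row.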

How the data were processed

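RNA-seq libraries were made from 10 ng of total RNA of sorted cells (NuGEN Trio). Per the labels, the authors mapped reads to mm10 with STAR 2.5.0a and normalized with DESeq2 1.20.0. The paper names GenomicAlignments for counting. The sources used here do not give the gene annotation, read length, strand setting or the treatment of reads with several matches. The deposited signal values, named RPM, are counts of reads over a library's own size factor: 100% of values in each library were whole multiples of 1 step within 0.01 read. They are called normalized counts. The design had assumed RPM, and its log-scale test was kept. All columns were used.

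The 18413 genes of 24421 whose mean reached 1 were tested with limma 3.58.1 in R 4.3.3, with a variance trend, on log2(normalized count + 1), which understates changes of low genes, with Benjamini-Hochberg adjustment. Recovered whole reads were also tested with edgeR 4.0.16 and DESeq2 1.42.0 (5400 and 5885 genes higher and lower with limma, 5600 and 5528 with edgeR, 5292 and 5683 with DESeq2). Paralog ratios used exact permutation tests over libraries. Other pseudocounts, filters, scalings, a replicate block and leaving out each library were tried. Replicate libraries differed by more than counting noise, and each comes from 1 mouse.

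Levels per kb used the shortest principal coding transcript of GENCODE (vM21, GRCm38), and shared sequence was counted in stretches of 50 bases against other annotated transcripts. Coordinates of starts are RefSeq's.

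The genes named were the 5 with the highest level per kb, up to 6 with the largest change in each direction among called genes with groups apart, the 5 with the smallest change among genes with a mean of at least 100, the paralogs and their parents, Rpl5, Rpl11 and Rps6, and of each companion list the 3 with the highest mean and the 2 with the largest change. Rpl26, Rpl30, Rpl15, Mtor, Tsc2, Mlst8 and Rps6ka2 were named after their values were seen. The members and lists were chosen with earlier results of these data known, so no list test was run. A value that this rule would name is not reported here.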

Additional observations from a re-analysis of the deposited data

How the results depend on the processing

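The direction of the family held under every alternative run, and the number of its genes called higher stayed between 60 and 71. The share of all tested genes called higher was between 19.6% and 36.5%. Leaving out each library in turn gave between 69 and 71 higher calls, 2 lower calls and a median log2 fold change between 0.80 (without KO replicate 1) and 0.97 (without KO replicate 2). In these runs, between 26.2% and 27.7% of all tested genes were called higher and between 29.1% and 30.3% lower. With a mean of at least 10 required, 1 gene fell in place of 2, since Rpl3l was then not tested. The median was 0.64 scaled to the same total, 0.55 scaled to the same total without Rn45s and 0.51 under quantile normalization. Among genes with under 50% shared stretches, a restriction chosen after seeing the data, 26 rose, out of fewer genes tested. With the replicate number as a block, 70 rose and 2 fell, and Rpl34 was lost (limma adjusted p = 0.086). Deviations of same-numbered libraries correlated at -0.051, -0.013 and -0.013, and those of other pairs of libraries between -0.018 and 0.034. No pairing by number was thus seen, though with 3 libraries a group it could have been missed.

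Rps19 changed direction, to 0.054 with edgeR and 0.0018 with DESeq2, and lay between -0.12 and 0.070 with each library left out, none of which passed the test. It passed as lower scaled to the same total without Rn45s (-0.33) and under quantile normalization (-0.29). Among the paralogs, leaving out each library put the difference between -0.0024 and 0.12 for Rpl7l1 and between -1.03 and 0.92 for Rpl39l, which changed direction without control replicate 2 or 3 or KO replicate 3. The cause was not tested. Over the named genes of the family, 552 values kept direction and side of the threshold, 29 lost the call, 5 gained it and 5, all of Rps19, changed direction. With 1 to 12 reads in the highest library, changes of Rpl3l, Rpl10l, Rpl30, Rpl34 and Rpl39l could be measured only coarsely.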

Other observations

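Values of 3 further ribosomal protein genes, chosen after they were seen, stand outside the naming pattern. Rpl37rt, an annotated retrotransposed copy of Rpl37, had means of 978 ± 72.2 normalized counts across controls and 1668 ± 211 across KO libraries (SD, n = 3 each), with a log2 fold change of 0.77 (limma adjusted p = 0.00023). Rps27rt and Rpl34-ps1, annotated copies of Rps27 and Rpl34, were listed at 0 in every library, as the parents nearly were.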
